A study of Mus musculus with 36 samples.

Results

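The cathepsins described here are 10 protease genes, Ctsa, Ctsb, Ctsc, Ctsd, Ctse, Ctsh, Ctsk, Ctsl, Ctss and Ctsz, chosen by symbol from the 24421 genes of each count table. They were followed in 36 RNA-seq libraries of sorted cells from mice that all lacked Apoe, so every group, the baseline included, carried the deletion and there was no wild-type group. The cells were macrophages from digested aorta, circulating monocytes from blood and spleen combined, and macrophages from peritoneal lavage. Each population was taken on chow (baseline), after 1 month of high cholesterol diet (early atherosclerosis) and after 6 months of that diet (advanced atherosclerosis), with 4 libraries in each of the 9 groups. The labels give no age of the mice, so age and time on diet cannot be told apart. Whether replicate libraries are separate mice is not in the labels either, so the p-values measure the spread between these libraries only.

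Cathepsins are made as inactive precursors, carried to the endosome and lysosome, largely by mannose 6-phosphate receptors, and activated there by acid and by other proteases. Ctsd and Ctse are aspartic proteases, Ctsa is a serine carboxypeptidase, and the other members are papain-like cysteine proteases. In macrophages they break down engulfed protein, trim the invariant chain of MHC class II molecules, and, when released, can cut elastin and collagen of the arterial wall.

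Library totals ran from 0.943 to 14.8 M reads, and the 12 baseline libraries (5.28 to 14.8 M) were all deeper than the 24 others (0.943 to 2.63 M), so baseline and depth cannot be told apart. Early and advanced libraries had comparable depth in aorta and peritoneum. In monocytes the advanced libraries (0.943 to 1.69 M) were mostly shallower than the early (1.59 to 2.26 M). Apoe kept reads in every library, at 2.65 to 112 counts per M reads of the library (CPM), which checks nothing, since reads outside the deleted part are still counted. The summed CPM of 10 macrophage markers was 9668 to 14032 in aorta, 5462 to 8653 in peritoneum and 1791 to 2841 in monocytes, and that of 10 monocyte markers was 6092 to 8469 in monocytes, so the labelled cell types carried their markers. Of the libraries, 6 stood apart from their groups: aorta baseline 3 and 4, aorta advanced 1, peritoneum early 1 and 2, and monocyte advanced 3. The spread between libraries, as a biological coefficient of variation, was 110% in aorta, 19.1% in monocytes and 21.2% in peritoneum. Fits of a pair of populations took 1 spread for both. It was 78.6% for aorta with monocytes, 78.7% for aorta with peritoneum and 21.0% for peritoneum with monocytes. The p-values between populations and of responses therefore assume a common spread, which the aortic libraries do not share with the others.

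The 10 genes together took 0.584 ± 0.0923% of all reads in aortic macrophages at baseline (SD, n = 4, as for all group means), 0.783 ± 0.101% at the early stage and 1.03 ± 0.101% at the advanced stage. The advanced libraries, at 0.890 to 1.13%, lay above all early libraries (0.654 to 0.866%). In monocytes the shares were 0.436 ± 0.00788%, 0.439 ± 0.0377% and 0.494 ± 0.0783%, and in peritoneal macrophages 0.603 ± 0.0635%, 0.599 ± 0.0358% and 0.652 ± 0.0243%. Ctsd took 6.40% of the aortic cathepsin reads at baseline, 5.76% at the early and 13.8% at the advanced stage, while the share of Ctsc went from 23.7% to 16.6% between baseline and the advanced stage.

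**Figure D1:**
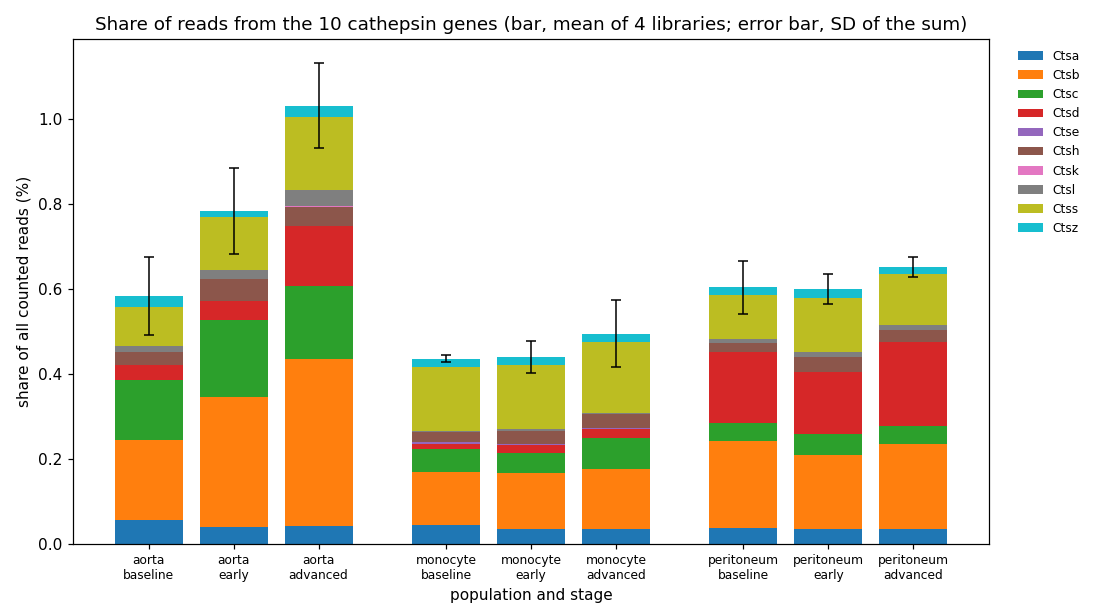
Share of all reads (percent) taken by the 10 cathepsin genes, by population and stage, stacked by gene as the mean of 4 libraries, with the SD of the sum as error bar. The aortic bars reach 0.584, 0.783 and 1.03% at the 3 stages, with more Ctsb and Ctsd in the last, while the monocyte and peritoneal bars stay between 0.436 and 0.652%.

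Levels of different genes were compared as CPM per kilobase of transcript, averaged over the 12 libraries of a population (mean ± SD, n = 12). On this scale Ctss, an endopeptidase that stays active at neutral pH and trims the invariant chain, averaged 950 ± 276 in aorta, 1155 ± 126 in monocytes and 870 ± 134 in peritoneum, the highest pooled mean in each. The order of the others differed, and in aorta and peritoneum it also differed by stage. In aortic macrophages at baseline Ctss (680 ± 76.3, n = 4) was followed by Ctsc (566 ± 168) and Ctsb (398 ± 99.8), with Ctsz, Ctsh, Ctsd and Ctsa between 185 and 150 CPM per kilobase and Ctsl at 68.2 ± 51.7. At the early stage Ctsc (727 ± 94.3) and Ctsb (646 ± 106) did not differ beyond their spread, ahead of Ctsh (321 ± 85.1) and Ctsd (211 ± 21.7). At the advanced stage Ctss was at 1261 ± 156, Ctsb at 830 ± 102, above Ctsc at 685 ± 91.0, and Ctsd at 671 ± 120 was level with Ctsc. In monocytes Ctsb (280 ± 38.0), Ctsc (233 ± 79.7) and Ctsh (179 ± 26.2) followed Ctss, Ctsz, Ctsa and Ctsd lay between 130 and 80.7 CPM per kilobase, and Ctsl (17.6 ± 9.42) and Ctse (16.4 ± 4.04) were alike within their spread. In peritoneal macrophages Ctsd and Ctss lay within each other's spread at baseline (785 ± 116 and 776 ± 83.5, n = 4) and at the advanced stage (922 ± 34.0 and 890 ± 45.6), with Ctsd the higher mean. Ctss was above Ctsd in mean only at the early stage (945 ± 191 and 695 ± 169), whose libraries 1 and 2 carried monocyte transcripts, as described with the peritoneal results. Peritoneal Ctsb followed at 408 ± 48.7 over the 12 libraries, and Ctsc, Ctsh, Ctsz and Ctsa lay between 179 and 96.2. Ctsk, the collagen-cutting protease best known from osteoclasts, averaged 9.41 CPM per kilobase in aorta, where all of its reads fell in 1 stage, and at most 0.602 elsewhere.

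**Figure D2:**
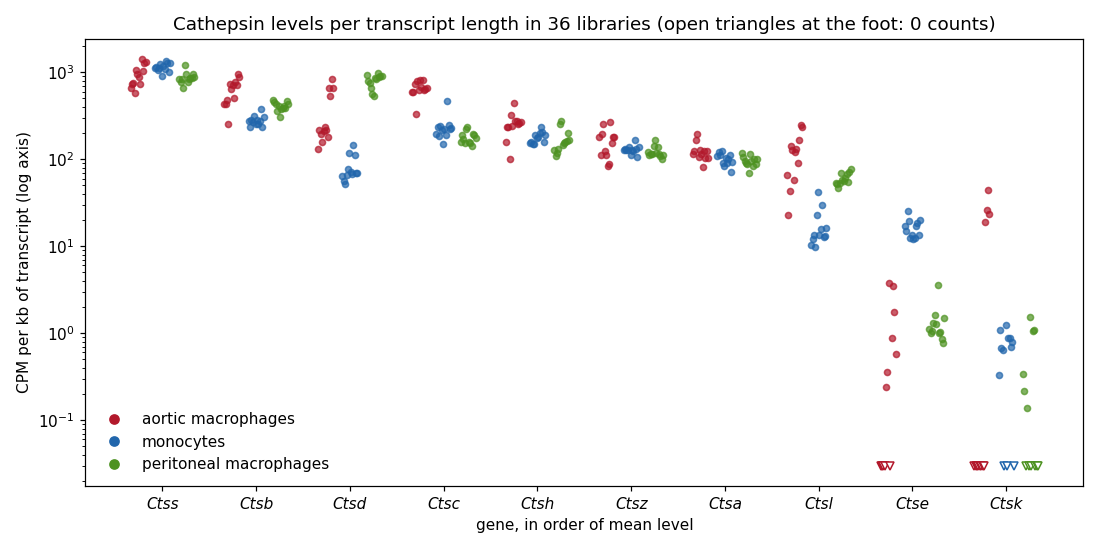
Level of each cathepsin in every library (CPM per kilobase of transcript, log axis), coloured by population; open triangles at the foot mark libraries with 0 counts. Ctss has the highest mean over 12 libraries in each population, peritoneal Ctsd overlaps it, and Ctsk is above 0 in aorta only in the 4 advanced libraries.

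Ctsd, the main aspartic endopeptidase of the lysosome, was the 1 member that passed against both other stages at the advanced stage in aortic macrophages. Its gene lies at chr7:142375910-142387827 (GRCm38.p6), and its CPM was 276, 462, 415 and 332 at baseline, 448, 499, 459 and 387 at the early stage, and 1402, 1149, 1767 and 1393 at the advanced stage (replicates 1 to 4). Every advanced library lay above every other aortic library, whereas the baseline and early libraries overlapped. The summed CPM of 10 markers of large peritoneal macrophages, cells rich in Ctsd, was also higher in the aortic advanced libraries, at 337 to 828, than in the early (200 to 285), and was 149 to 396 at baseline and 15371 to 18642 in the peritoneum at the advanced stage. All 10 markers had reads in the aortic advanced group, Gata6 was at 0 in the aortic baseline group, and the part of such cells in the Ctsd level was not tested. Ctsd was 3.21-fold higher at the advanced than at the early stage (log2 change 1.68 ± 0.23 SE, edgeR adjusted p = 0.00559), in a comparison in which 0.0403% of 9920 tested genes passed, and 1 of the 9 members tested. Without early 3 or without advanced 3 the adjusted p was at most 0.0653, and without the libraries that stood apart, which include the 1 with the marker sum of 828, the difference was 1.71 (adjusted p = 0.00245). Against baseline Ctsd was 4.17-fold higher (2.06 ± 0.24, adjusted p = 8.41e-05), and without the libraries that stood apart the difference was 2.17 (adjusted p = 0.000538).

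Ctsk went from no reads to a measurable level in the same 4 libraries. It had 0 counts in all 4 baseline libraries (32.7 M reads in all) and all 4 early libraries (7.90 M reads), and 31, 84, 161 and 88 counts in the advanced libraries, which is 28.9, 39.2, 67.0 and 35.7 CPM. With the 0 of a whole group replaced by a floor of 3 counts, its advanced level was at least 112-fold higher than the early and at least 465-fold higher than the baseline level. The test against baseline passed (edgeR adjusted p = 0.0406), but this was lost without any of 7 of the 8 libraries in turn (adjusted p up to 0.207). With the replicate number as a block the adjusted p against baseline was 0.145. Against the early stage it did not pass (edgeR adjusted p = 0.367), and it did without the libraries that stood apart (adjusted p = 0.0381), with DESeq2 (0.000495) and with limma-voom (0.000325). Fibroblasts can also make Ctsk. The summed CPM of 7 fibroblast markers in aortic libraries was 8.89 to 287 at baseline, 510 to 1058 at the early stage and 140 to 379 at the advanced stage, and their part in the Ctsk reads was not tested. Over the 12 aortic libraries Ctsd and Ctsk had a Pearson correlation of log2 CPM of 0.96, a description of libraries that share stage and depth.

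The RefSeq promoter windows (GRCm38.p6) hold 250 bases before the start of transcription and 50 from it. Those of Ctsd, Ctsk and Ctss, which rose in aorta, are printed to show that these members differ in the motifs there. That of Ctsa is printed because it holds the same motif as that of Ctsd. Windows were found for 7 members, 8 in all. Ctsb, Ctse and Ctsh had none, so Ctsb, which also rose in aorta, is not covered. They were searched on both strands for CACGTG, the E-box bound by basic helix-loop-helix factors, for TCACGTGA, its longer form known from lysosomal genes and bound by Tfeb, for GAGGAAGT (ACTTCCTC on the other strand), a form bound by the myeloid factor PU.1, and for TGACTCA, bound by AP-1. Every TCACGTGA holds a CACGTG, so the matches of the first 2 motifs overlap. Capitals mark CACGTG in Ctsd and Ctsa and ACTTCCTC in Ctss, and Ctsk has no capitals.
Ctsd, chr7:142387778-142388077, minus strand: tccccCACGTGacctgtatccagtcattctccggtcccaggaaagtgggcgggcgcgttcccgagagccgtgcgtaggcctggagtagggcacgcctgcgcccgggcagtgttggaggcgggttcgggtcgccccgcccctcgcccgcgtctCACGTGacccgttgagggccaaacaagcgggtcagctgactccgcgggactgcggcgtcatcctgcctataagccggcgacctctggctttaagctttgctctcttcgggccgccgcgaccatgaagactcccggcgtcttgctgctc
Ctsk, chr3:95498960-95499259, plus strand: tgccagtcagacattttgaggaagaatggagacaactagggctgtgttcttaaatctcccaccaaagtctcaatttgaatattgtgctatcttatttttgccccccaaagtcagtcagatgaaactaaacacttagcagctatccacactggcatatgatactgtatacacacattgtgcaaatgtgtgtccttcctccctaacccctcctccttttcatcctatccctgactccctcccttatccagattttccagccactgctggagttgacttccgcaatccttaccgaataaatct
Ctss, chr3:95526536-95526835, plus strand: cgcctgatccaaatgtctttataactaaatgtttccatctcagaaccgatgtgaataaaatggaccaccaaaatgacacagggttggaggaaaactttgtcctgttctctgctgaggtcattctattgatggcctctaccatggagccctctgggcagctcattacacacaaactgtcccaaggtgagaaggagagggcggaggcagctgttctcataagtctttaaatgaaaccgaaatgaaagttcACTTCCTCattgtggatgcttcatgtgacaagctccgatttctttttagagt
Ctsa, second window, chr2:164833523-164833822, plus strand: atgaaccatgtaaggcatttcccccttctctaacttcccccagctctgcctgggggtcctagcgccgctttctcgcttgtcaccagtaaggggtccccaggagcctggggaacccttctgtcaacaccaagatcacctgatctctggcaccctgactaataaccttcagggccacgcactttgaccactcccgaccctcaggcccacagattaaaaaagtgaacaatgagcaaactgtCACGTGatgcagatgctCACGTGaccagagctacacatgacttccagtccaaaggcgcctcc

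Ctsd held CACGTG at -245 and -98 from the first transcribed base, the second of them within a TCACGTGA that starts at -99, and Ctsa held 2 TCACGTGA in its second window, at -13 and 4. Among all 32851 RefSeq windows of this length, 7.15% held CACGTG and 0.974% held TCACGTGA. Ctsl also held a CACGTG, at -236. GAGGAAGT, present in 3.20% of windows, was matched on the other strand in Ctss at -2 and in Ctsc at -151. TGACTCA, present in 5.20% of windows, was in none of the 8, and the Ctsk window held none of the 4 motifs. These are matches of letters and not tests of binding.

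The cysteine endopeptidases Ctsb and Ctss were higher at the advanced stage than at baseline in aortic macrophages, with early values between. Ctsb (chr14:63122462-63145923), which also removes dipeptides from the carboxyl end of proteins, had 2022, 2043, 2289 and 1203 CPM at baseline, 3461, 3017, 3405 and 2373 at the early stage and 3691, 3401, 4492 and 4155 at the advanced stage. All early and all advanced libraries lay above all baseline libraries. Ctsb was 2.28-fold higher at the advanced stage than at baseline (1.19 ± 0.20, edgeR adjusted p = 0.00432), and at the early stage its 1.76-fold difference from baseline missed the threshold (0.82 ± 0.19, adjusted p = 0.0735). Ctss (chr3:95526786-95556405) had 902, 987, 1013 and 783 CPM at baseline, 1439, 1305, 1201 and 987 at the early stage and 1918, 1415, 1725 and 1777 at the advanced stage. Its advanced libraries were all above its baseline libraries, and its difference of 2.01-fold (1.01 ± 0.20, adjusted p = 0.0145) was lost without baseline 1, advanced 3 or advanced 4 (adjusted p up to 0.0651). Ctsb, Ctsd, Ctsk and Ctss were thus the 4 of 9 tested members that rose between baseline and the advanced stage, against a background of 0.534% of tested genes called higher and 0.0504% called lower. Ctsk passed the filter on low counts only through the advanced group, where it is high, so its call adds nothing to that count, and it leaves 3 of 8. In such bulk libraries more cells of a type and more RNA per cell cannot be told apart.

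Ctsl, an endopeptidase with elastin and collagen among its substrates, had a wide spread in aorta, at baseline with 131, 44.9, 84.3 and 278 CPM. It had 254, 115, 237 and 257 CPM at the early stage and 180, 330, 490 and 465 at the advanced stage, and the groups overlapped. Its advanced level was 1.51 ± 0.49 above baseline on the log2 scale without passing (edgeR adjusted p = 0.178), and 2.49 (adjusted p = 0.013) without the libraries that stood apart, among them baseline 4, which held the highest baseline value.

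The exopeptidases did not pass any aortic stage comparison. Ctsc, the dipeptidyl peptidase that activates granule serine proteases, averaged 1411 ± 419 CPM at baseline, 1813 ± 235 at the early and 1709 ± 227 at the advanced stage. The aminopeptidase Ctsh was at 259, 383, 381 and 162 CPM at baseline and at 526, 393, 709 and 449 at the early stage, which did not overlap (0.94 ± 0.28, adjusted p = 0.15). Its advanced libraries were close together, at 410 to 442 CPM. Ctsz, a carboxypeptidase, had 260, 160, 283 and 363 CPM at baseline, 179, 162, 119 and 127 at the early stage and 383, 219, 263 and 260 at the advanced stage. The early and advanced libraries of Ctsz did not overlap, but the difference did not pass (0.94 ± 0.34, adjusted p = 0.975). Ctsa, the carboxypeptidase that also shields beta-galactosidase and neuraminidase in the lysosome, averaged 547 ± 136, 390 ± 69.3 and 417 ± 46.3 CPM. Ctse, an aspartic protease of endosomes, had 0 counts in the 4 baseline libraries, then 1, 1, 21 and 0 counts at the early stage and 2, 16, 9 and 3 at the advanced stage, at least 38.9-fold above a baseline floor of 3 counts for the group. It was too low there to be tested.

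Between baseline and the early stage no aortic member passed edgeR's test, while 0.373% of all tested genes did. DESeq2 called 1 member there, as did edgeR with no filter on low counts. The median log2 change of the members tested was 0.49 for early against baseline, 0.48 for advanced against early and 1.01 for advanced against baseline, beside -0.02, -0.02 and -0.04 over all tested genes. The libraries of the groups did not overlap for 2 of 9 tested members for early against baseline, beside 5.77% of all tested genes. For advanced against early they did not overlap for 3 of 9 (8.65%), and for advanced against baseline for 5 of 9 (9.24%). Ctsk is among these in the last 2 comparisons. It adds nothing there, because it passed the filter on low counts only through the advanced group. Ctsk is also among the members of the medians above. Where 4 libraries do not overlap 4 others, a two-sided exact permutation test of the CPM gives p = 0.0286, the smallest value it can give.

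**Figure D3:**
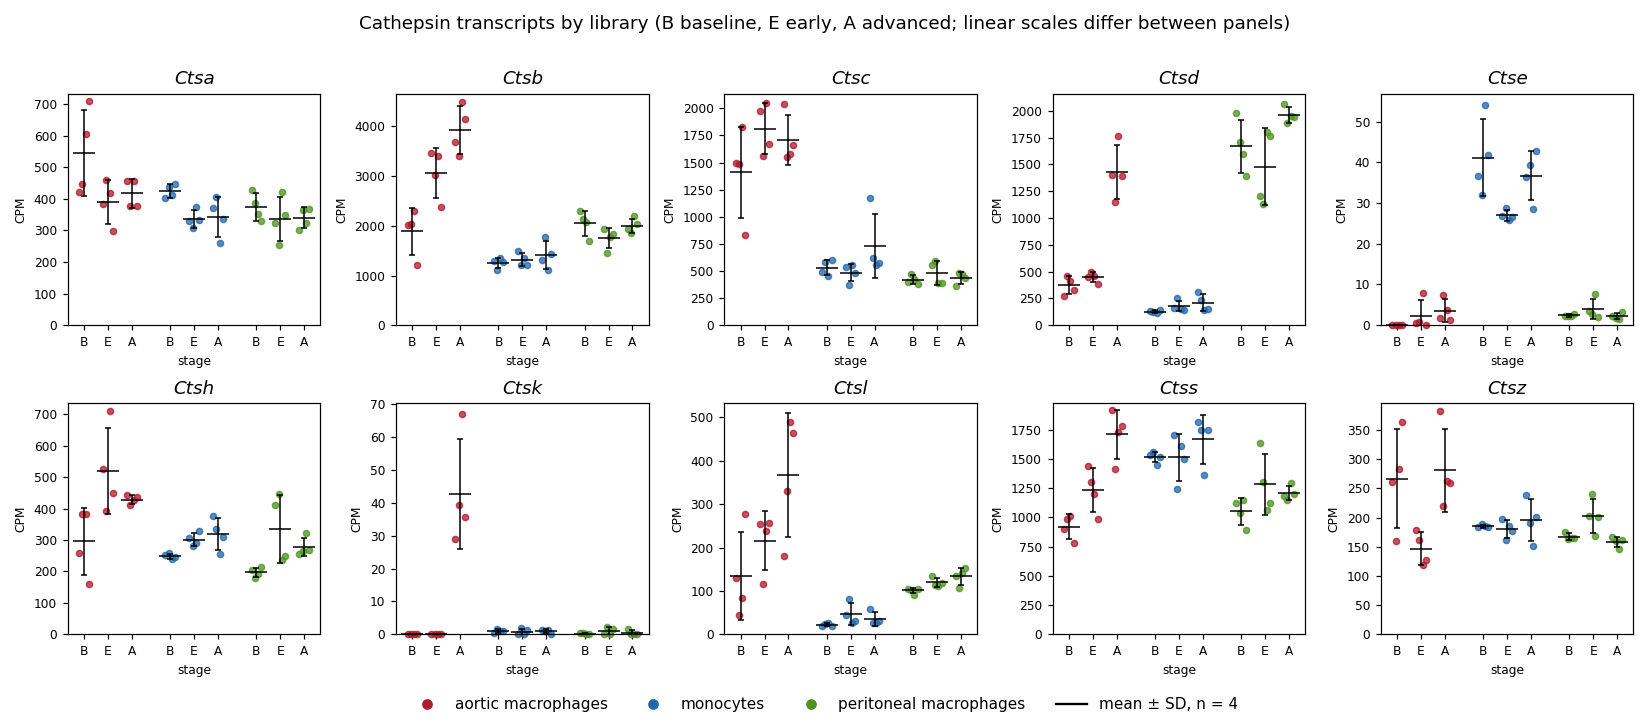
CPM of each cathepsin in every library (linear axes that differ between genes), by population and stage, with points for libraries and lines for the mean ± SD of 4. Ctsd in aorta steps from 387 to 499 CPM at the early stage to 1149 to 1767 at the advanced stage, and peritoneal Ctsd is above 1129 CPM in every library.

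In circulating monocytes Ctsl, Ctse, Ctsd and Ctsh passed a stage comparison. Ctsl was at 20.3, 23.8, 26.8 and 19.4 CPM at baseline and at 45.3, 81.7, 26.4 and 31.0 at the early stage, with an overlap of 1 library. It was 2.08-fold higher (1.06 ± 0.30, edgeR adjusted p = 0.0357). Ctse fell, from 36.6, 32.1, 54.1 and 41.9 CPM to 26.7, 28.8, 25.8 and 26.6 with no overlap (-0.59 ± 0.17, adjusted p = 0.0407). These were 2 of 9 members tested, beside 10.8% of all tested genes. The call for Ctse was lost without any of 7 of the 8 libraries in turn (adjusted p up to 0.103), and that for Ctsl without any 1 of 5 libraries, 3 of baseline (1, 2 and 4) and 2 of the early stage (1 and 2), where the adjusted p reached 0.159. With counts thinned to equal depth, Ctsl had an adjusted p of 0.0625 and Ctse of 0.188.

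Monocyte Ctsd was at 135, 119, 112 and 141 CPM at baseline, 164, 253, 154 and 145 at the early stage and 308, 235, 146 and 150 at the advanced stage. All 8 libraries on the diet lay above the 4 on chow. The early difference from baseline did not pass (0.52 ± 0.21, edgeR adjusted p = 0.133). It passed with counts thinned to equal depth (0.76, adjusted p = 0.0392). Ctsd was 1.70-fold higher at the advanced stage than at baseline (0.76 ± 0.22, edgeR adjusted p = 0.0234), and the call was lost without baseline 2, baseline 3 or advanced 1 (adjusted p up to 0.0933). Ctsh went from 252, 258, 240 and 245 CPM to 306, 281, 292 and 328 at the early stage and 376, 335, 255 and 309 at the advanced stage. The advanced group overlapped the baseline through advanced 3, and the difference passed (1.32-fold, 0.40 ± 0.10, adjusted p = 0.0157), though not without advanced 1 (adjusted p = 0.0556). Nor did it pass with counts thinned to equal depth (0.37, adjusted p = 0.0532). These 2 of 9 members compare with 19% of all genes tested for advanced against baseline, and no member passed for advanced against early, where 2.05% of genes did.

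The other monocyte members did not pass. Ctss, the highest of them per kilobase, had 1451 to 1555 CPM at baseline, 1239 to 1705 at the early and 1359 to 1815 at the advanced stage. Ctsb stayed between 1118 and 1776 CPM in all 12 libraries, and Ctsz between 151 and 238. Ctsa was at 402 to 448 CPM at baseline, 309 to 374 at the early and 260 to 406 at the advanced stage. Its baseline and early libraries did not overlap, but the difference did not pass (-0.31 ± 0.11, edgeR adjusted p = 0.0916). Ctsc was at 374 to 615 CPM in 11 libraries and at 1173 in advanced 1. Ctsk had at most 1.89 CPM and was not tested. Transcripts of other cells moved with stage in these sorts: the summed CPM of 9 neutrophil markers was 488 to 1058 at baseline, 3986 to 14459 at the early stage and 5224 to 40278 at the advanced stage, and that of 9 T and NK cell markers reached 1224 at the early stage against at most 50.7 at the others. Every neutrophil marker counted was above 0 in each of these groups, and their part in the cathepsin differences was not tested. Without advanced 3, which had the most neutrophil transcripts, the differences from baseline were 0.89 for Ctsd (edgeR adjusted p = 0.016) and 0.48 for Ctsh (adjusted p = 0.00902). The advanced libraries that remain, at 5224 or more, still lie above the baseline maximum of 1058, so this fit does not separate the neutrophil part.

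**Figure D4:**
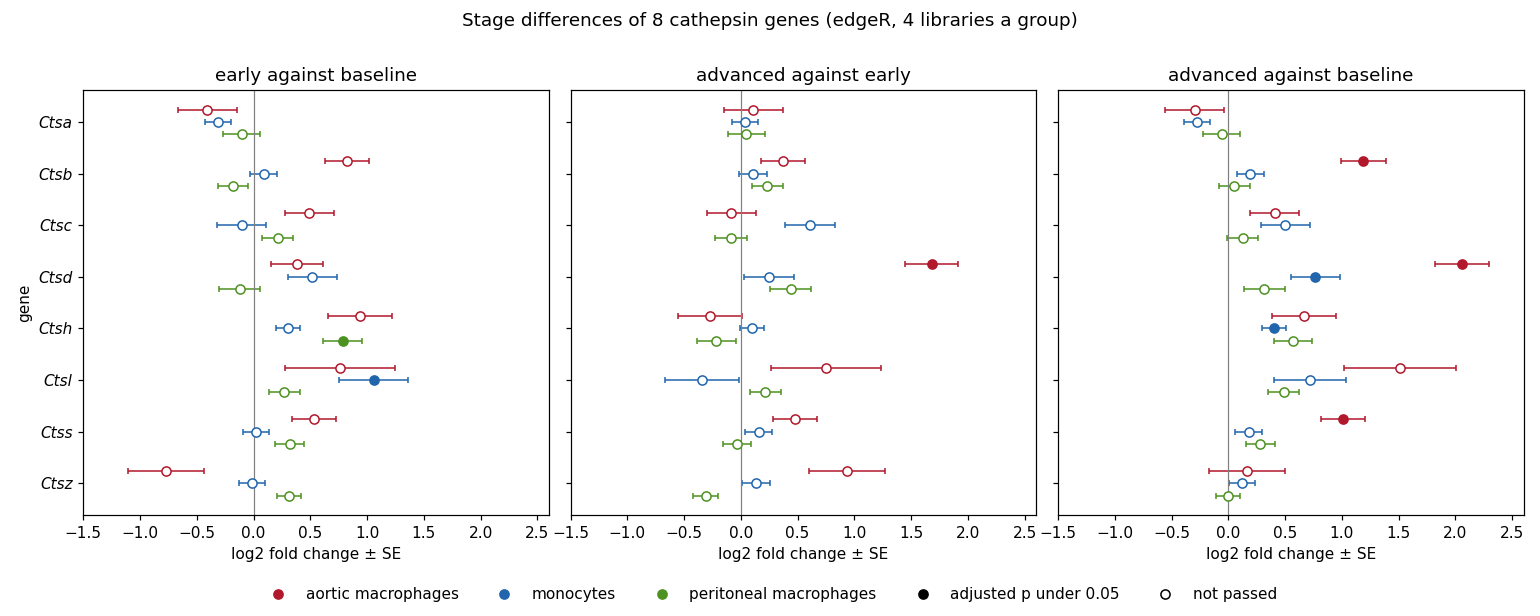
Log2 fold change (edgeR, ± SE, filled where the adjusted p passed) of 8 cathepsins between stages in each population; Ctsk and Ctse are left out because some groups had 0 counts or too few to test. Among these 8 genes Ctsd has the largest aortic changes that passed, 1.68 for advanced against early and 2.06 for advanced against baseline, while all monocyte and peritoneal changes but that of monocyte Ctsl at the early stage (1.06) lie within 1 log2 unit of 0.

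In peritoneal macrophages 1 of 8 tested members passed a stage comparison. Ctsh was at 204, 178, 193 and 213 CPM at baseline, 410, 446, 236 and 250 at the early stage and 256, 264, 321 and 269 at the advanced stage. All libraries on the diet lay above those on chow, and the early level was 1.72-fold higher than baseline (0.78 ± 0.17, edgeR adjusted p = 0.0363), beside 1.79% of all tested genes. The 2 highest libraries, early 1 and 2, were also those with the summed CPM of monocyte markers at 1182 and 1679, against 175 to 256 in early 3 and 4, and with the markers of large peritoneal macrophages at 11105 and 6224, against 17031 to 18192. Without early 1 and 2 the difference was 0.40 (adjusted p = 0.214). Ctss followed the same order, with 1638 and 1301 CPM in early 1 and 2 and 1059 and 1126 in early 3 and 4, as did Ctsc with 552 and 593 against 389 and 386. Ctsd had the reverse order, at 1206 and 1129 CPM against 1805 and 1768. What part the other cells had in these values was not tested.

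**Figure D5:**
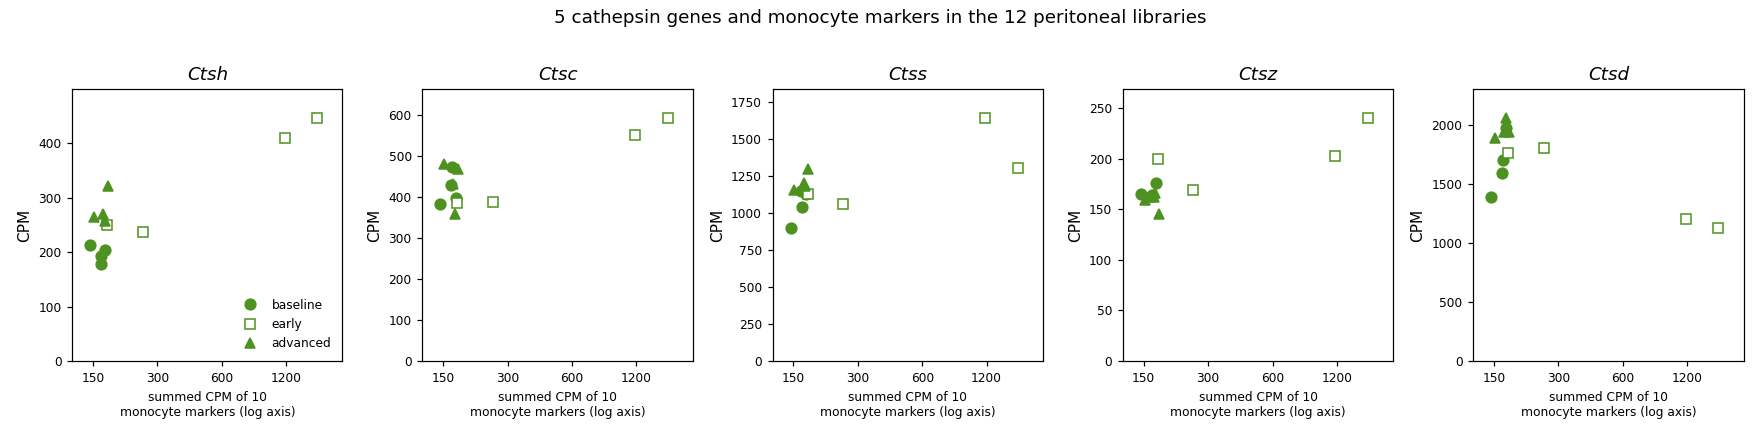
CPM of 5 cathepsins against the summed CPM of 10 monocyte markers (log axis) in the 12 peritoneal libraries, by stage. Early 1 and 2, at marker sums of 1182 and 1679, have the 2 highest Ctsh values and the 2 lowest Ctsd values.

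No peritoneal member passed for advanced against early, where 1.33% of genes did, or for advanced against baseline, where 0.898% did. Peritoneal Ctsd was close to uniform at the advanced stage, at 2062, 1890, 1946 and 1944 CPM, after 1981, 1709, 1596 and 1389 at baseline. Against baseline, 3 of 8 tested members had no overlap, beside 15.1% of all tested genes: Ctsh (0.57 ± 0.17, edgeR adjusted p = 0.113), Ctsl with 91.4 to 106 CPM at baseline and 107 to 152 at the advanced stage (0.49 ± 0.14, adjusted p = 0.101), and Ctss with 896 to 1146 and 1150 to 1293 CPM (0.28 ± 0.13, adjusted p = 0.291). When early 1 and 2 were left out of the fit, which narrows the estimated spread and changes none of the 8 libraries compared, all 3 passed, with adjusted p of 0.00591 for Ctsh, 0.026 for Ctsl and 0.049 for Ctss. Ctsz at the early and advanced stages did not overlap either, at 169 to 240 and 146 to 166 CPM (-0.31 ± 0.11, adjusted p = 0.146). Ctsk and Ctse were too low to be tested, with at most 2.35 and 7.62 CPM.

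Averaged over stages, the largest difference of Ctsd was that between peritoneal macrophages and monocytes. Ctsd was 11.6-fold higher in peritoneal macrophages than in monocytes with no overlap over 12 libraries each (3.54 ± 0.13, edgeR adjusted p = 4.22e-17), and in aortic macrophages it exceeded the monocyte level by 1.89 ± 0.13 (adjusted p = 9.47e-12). It was lower in aortic than in peritoneal macrophages (-1.54 ± 0.12, adjusted p = 4.81e-11), although the aortic advanced libraries at 1149 to 1767 CPM reached the range of the peritoneal ones, 1129 to 2062. Ctsl was likewise lowest in monocytes, 2.02 ± 0.14 below peritoneal and 2.76 ± 0.28 below aortic macrophages (adjusted p of 6.58e-12 and 1.24e-08). Ctse had the opposite pattern, at 25.8 to 54.1 CPM in monocytes, no more than 7.62 in peritoneum and no more than 7.99 in aorta (-3.45 ± 0.16 in peritoneum against monocytes, adjusted p = 1.43e-15). In that comparison Ctse passed the filter on low counts only through the monocytes.

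Ctsc was highest in aortic macrophages. It ran from 829 to 2051 CPM there, against 358 to 593 in peritoneal macrophages with no overlap (1.80 ± 0.11, edgeR adjusted p = 8.73e-13), and was 1.51 ± 0.13 above monocytes (adjusted p = 6.84e-10). Ctsb was higher in aortic than in peritoneal macrophages (0.47 ± 0.10, adjusted p = 0.000508) and higher in both than in monocytes (1.10 ± 0.10 and 0.75 ± 0.08, adjusted p of 6.12e-10 and 4.67e-09). Ctsh was higher in aorta than in either (0.49 ± 0.12 against monocytes and 0.53 ± 0.13 against peritoneum, adjusted p of 0.00263 and 0.00299). Ctss was slightly lower than in monocytes in both macrophage populations (-0.32 ± 0.08 in aorta, adjusted p = 0.00372, and -0.21 ± 0.07 in peritoneum, adjusted p = 0.0106). Between aorta and peritoneum Ctss differed by 0.01 with an interval (± 2 SE) from -0.17 to 0.19. Ctsa in aorta against monocytes (0.30 ± 0.11, adjusted p = 0.0399) was lost without the libraries that stood apart (0.17, adjusted p = 0.127), and Ctsz did not pass there (0.26, adjusted p = 0.169). In all, 8 of 10 tested members passed for aorta against monocyte, 5 of 9 for aorta against peritoneum and 5 of 9 for peritoneum against monocyte. Of all tested genes 29.7%, 26.8% and 67% passed in these comparisons, so for peritoneum against monocyte the members passed no more often than genes at large. Ctse is among the 8 for aorta against monocyte and among the 5 for peritoneum against monocyte. It passed the filter on low counts there only through the monocytes, where it is high, so its calls add nothing to those counts.

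Whether a population responded to the diet differently from another was tested as an interaction. Each such fit took a common spread for both populations of the pair, although the aortic libraries spread more. Ctsb was the 1 abundant member that passed, with an early response 1.05 ± 0.24 larger in aortic than in peritoneal macrophages (edgeR adjusted p = 0.0144, 3.33% of genes called), and limma-voom with quality weights gave an adjusted p of 0.682. Against monocytes the aortic early response of Ctsb was 0.77 ± 0.23 larger (adjusted p = 0.0752, 2.64% of genes called). There Ctse passed (adjusted p = 0.00946), resting on an aortic baseline of 0 counts, and not without aorta early 3 (adjusted p = 0.0581). It passed the filter on low counts only through the monocytes, where it is high, so this call adds nothing. The response of Ctsd from the early to the advanced stage was 1.45 ± 0.32 larger in aorta than in monocytes and 1.24 ± 0.28 larger than in peritoneum, and neither passed (adjusted p of 0.115 and 0.0608, with 0.0654% and 0.234% of genes called). Both passed without the libraries that stood apart, at 1.36 (adjusted p = 0.048) and 1.58 (adjusted p = 0.00221). The responses of the aorta in the 2 comparisons share its libraries. No member passed in the responses of peritoneum against monocyte, early (2.78% of genes called) or advanced (1.25%), and the smallest adjusted p there was 0.0823, for the early response of Ctse.

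Other genes of cathepsin biology were taken from fixed lists. In aorta, from baseline to the advanced stage, 0 of 26 other lysosomal hydrolases and 0 of 17 genes of the lysosomal membrane and its biogenesis passed. Neither did any of 16 sorting and maturation genes or of 5 inhibitors, while 0.585% of all tested genes passed. The medians of these lists were 0.62, 0.44, 0.19 and 0.73 on the log2 scale, in the same order. That of the members, 1.01, includes Ctsk, which passed the filter on low counts only through the advanced group. Without Ctsk the middle of the members lies between Ctsh (0.67) and Ctss (1.01). Of the hydrolases 19 of 26 had a positive difference, in a comparison where the median over all tested genes was -0.04. Lgmn, the asparaginyl protease that matures several cathepsins, averaged 633, 770 and 1099 CPM over the stages (0.92 ± 0.22 for advanced against baseline, edgeR adjusted p = 0.0708, named after its values were seen). Among 12 substrates, Fn1 (fibronectin) fell from 4134 to 842 CPM between baseline and the early stage (-2.17 ± 0.28, adjusted p = 0.000369) and rose to 2501 at the advanced stage (1.56 ± 0.27, adjusted p = 0.0302).

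In monocytes at the early stage 3 of 6 inhibitors rose and none fell, Cst7 by 2.65 ± 0.52 (edgeR adjusted p = 0.00538), Cstb by 0.58 ± 0.16 (adjusted p = 0.0275) and Ctla2a by 1.75 ± 0.50 (adjusted p = 0.0356). The share of all tested genes that passed in this comparison, in either direction, was 10.8%, which is also the background of the 2 lists that follow. Cstb, an intracellular inhibitor of cysteine cathepsins, went on from 28.8 CPM at baseline through 42.2 to 63.2 at the advanced stage (1.17 ± 0.16 against baseline, adjusted p = 0.000304). Of 3 other cathepsins tested, 2 rose at the early stage: Ctsg, a neutrophil granule protease (2.25 ± 0.53, adjusted p = 0.0146), and Ctsw of T and NK cells (2.82 ± 0.72, adjusted p = 0.0218). The granule proteins Prtn3, Elane and Mpo were among 5 of 14 substrates that rose, by 3.40 to 3.85, and 2 fell, Tlr9 among them (-0.80, adjusted p = 0.000469). The neutrophil and the T and NK cell marker sums given above were also higher at the early stage than at baseline. The part of such cells in these list results was not tested. Cd63, a lysosomal membrane protein also found in granules, rose by 2.76 ± 0.48 (adjusted p = 0.00249), while Tfe3, Cd68 and Tfeb fell. Tfeb, a regulator of lysosomal genes, went from 65.0 CPM at baseline to 34.6 at the advanced stage (-0.88 ± 0.13, adjusted p = 0.000674).

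In the peritoneum the list genes that passed at the early stage were 4 of 11 substrates, beside 1.79% of all tested genes. They were H2-DMb1, H2-Ab1, H2-Eb1 and H2-Aa, all of MHC class II, and without early 1 and 2 none passed. At the advanced stage against baseline 2 of 4 inhibitors rose, where 0.898% of all tested genes passed. They were Serpinb6a, by 0.95 ± 0.20 (edgeR adjusted p = 0.0414), and Cst3, the secreted cystatin C, by 0.49 ± 0.11 (adjusted p = 0.0493). Cd63 rose by 1.42 ± 0.27 (adjusted p = 0.03). Across populations, peritoneal macrophages had 20 of 26 hydrolases above monocytes and 3 below, led by Man2b1 at 1.95 ± 0.08 (adjusted p = 1.33e-16), where 67% of all tested genes passed, and aortic macrophages had 12 above monocytes and 1 below, where 29.7% passed. Lgmn was higher in aorta than in monocytes (2.46 ± 0.12, adjusted p = 8.97e-15) and than in peritoneum (1.06 ± 0.15, adjusted p = 2.47e-06). Glb1, the beta-galactosidase that Ctsa shields, was lower in aorta than in peritoneum (-2.64 ± 0.35, adjusted p = 1.24e-06).

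The genes whose pattern was most like that of Ctsd were sought among 6455 genes with a mean of at least 20 CPM, by Pearson correlation of log2 CPM over the 36 libraries after the mean of each population was subtracted. They were Spp1 (0.83), which encodes osteopontin, Serpinb2 (0.81), Sdcbp (0.80), Gpnmb (0.79), a membrane glycoprotein of lipid-laden macrophages, and Icam2 (0.78). Serpinb2 and Icam2 are also in the list of large peritoneal macrophage markers. In the aorta Serpinb2 averaged 0.930, 2.73 and 45.3 CPM and Icam2 0.0300, 0.191 and 8.50 CPM at the 3 stages, against 862 to 1154 and 292 to 343 CPM in peritoneal groups. Among members, on the same measure, Ctsb and Ctss reached 0.80, Ctsd and Ctsk 0.78 and Ctsb and Ctsd 0.72. These pooled values did not hold in each population. Ctsb and Ctss had 0.61 in monocytes and 0.04 in the peritoneum. Ctsd and Ctsk had 0.18 and -0.17 there, where Ctsk had few or no counts. Ctsb and Ctsd had 0.80 in aorta and 0.05 in monocytes. Within the 12 aortic libraries Ctsb and Ctss had 0.93, Ctsc and Ctsh 0.91 and Ctsd and Ctss 0.90, in monocytes Ctss and Ctsz had 0.88, and in the peritoneum Ctsb and Ctsd had 0.77. These points share stage, depth and composition of the sort.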

How the data were processed

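The deposited values were whole-number counts of reads per gene, 1 table per library, made by the authors with STAR, featureCounts and assembly mm10, per the submitters' processing notes. Versions, and whether counting used strand, are not given in the sources used here, so reads of overlapping genes cannot be told apart. Per the labels' protocols, cells were sorted into lysis buffer and libraries made with the Ovation SoLo kit and sequenced in paired ends. The labels give polyA RNA, and Rn45s took 4.74 to 19.8% of reads and stayed in the totals.

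Stages were compared within the 12 libraries of a population, and populations (mean over stages) and responses (interactions) within the 24 libraries of a pair, with edgeR 4.0.16 (R 4.3.3): TMM scaling, filterByExpr, quasi-likelihood test, two-sided, Benjamini-Hochberg adjustment over all tested genes and a threshold of 0.05. Standard errors are the log2 fold change divided by the root of F. CPM use the library total. Alternatives were RLE scaling, no filter, DESeq2 1.42.0, limma-voom (3.58.1), a replicate block, thinning to 942899 reads, and leaving out each library. Leaving out the libraries that stood apart, and totals without Rn45s, were added after the data were seen. The script was tested on simulated data.

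No 2 libraries of the same group agreed within sampling noise (chi-square per gene at least 2.59), and libraries of different groups were not compared in this way. Members and lists were chosen with earlier results of these data known. All 10 members were named, and up to 4 passing genes of a list with the smallest p per comparison. Transcript lengths are those of 1 principal transcript per gene. All 10 symbols matched RefSeq and 7 had a promoter window. Counts carry no molecular identifiers, so floors of 3 counts cover counting error only.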

Additional observations from a re-analysis of the deposited data

Results flagged for a closer look

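Among 81 groups of 4 libraries examined for the members, 5 had 1 library far from the others, where chance flags about 1 in 20. In monocytes at the advanced stage Ctsc was at 1173 CPM in replicate 1, with the next at 615, and Ctss at 1359 in replicate 3, with the next at 1742. In aorta at the early stage Ctse was at 7.99 CPM in replicate 3, with the next at 0.762, and Ctsl at 115 in replicate 2, with the next at 237. In the peritoneum at baseline Ctsl was at 91.4 CPM in replicate 3, with the next at 103. Responses to the diet differed between populations by an interaction test for 2 members. For Ctse the early response was 7.08 larger on the log2 scale in aorta than in monocytes, a fitted value that depends on the prior count because the aortic baseline is at 0. For Ctsb the early response was 1.05 larger in aorta than in peritoneum.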

How the results depend on the processing

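No member result that passed changed direction under the alternatives or without any single library. Of 30 member results that passed, 225 of 240 alternatives and 500 of 544 fits without 1 library kept the call, and of 132 that did not pass, 41 alternatives passed. Ctsb and Ctsd for advanced against baseline in aorta kept their calls in all of them. Counts of members called changed as follows. In aorta, early against baseline, the 0 called became 1 with no filter and with DESeq2, and advanced against early went from 1 to 2 with DESeq2, limma-voom and without the libraries that stood apart. Advanced against baseline went from 4 to 5 with no filter, with limma-voom and without those libraries. In monocytes, early against baseline, 2 became 3 with DESeq2 and 1 when thinned. That 1 was Ctsd, while the calls of Ctsl and Ctse were both lost. For advanced against baseline 2 became 1 when thinned, as Ctsh was lost. In the peritoneum, early against baseline, 1 became 2 with DESeq2 and 0 without the libraries that stood apart, advanced against early went from 0 to 1 with DESeq2, and advanced against baseline from 0 to 2 with DESeq2 and 3 with limma-voom or without those libraries. Between populations 8 became 7 for aorta against monocyte (limma-voom or without those libraries), 5 became 6 for aorta against peritoneum (no filter or without them) and for peritoneum against monocyte (DESeq2, limma-voom, thinned or without them). For the early response of aorta against monocyte 1 became 0 with limma-voom or thinned and 2 without those libraries, and against peritoneum 1 became 0 with limma-voom. For the advanced response 0 became 2 against monocyte with DESeq2 or without those libraries, and against peritoneum 2 with no filter, limma-voom, thinned or without those libraries and 3 with DESeq2.

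Without each library in turn the counts ran, for early against baseline, advanced against early and advanced against baseline, over 0 to 0, 0 to 1 and 2 to 5 in aorta, 0 to 2, 0 to 0 and 0 to 2 in monocytes, and 0 to 1, 0 to 0 and 0 to 1 in the peritoneum. They ran over 7 to 9 for aorta against monocyte, 5 to 6 for aorta against peritoneum and 5 to 6 for peritoneum against monocyte. Early and advanced responses ran over 0 to 2 and 0 to 1 for aorta against monocyte, 1 to 3 and 0 to 2 for aorta against peritoneum, and 0 to 1 and 0 to 0 for peritoneum against monocyte.

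Replicate numbers were checked for pairing only between the stages of a population. There the deviations of libraries with the same number correlated from -0.042 to 0.029 in aorta, -0.332 to 0.186 in monocytes and -0.211 to 0.089 in the peritoneum. Whether libraries with the same number in different populations at a stage come from the same mice was not tested. The population and response comparisons treat them as unpaired. With the replicate block the members called for early against baseline went from 2 to 0 in monocytes and from 1 to 0 in the peritoneum. It also ended the calls of Ctsk for advanced against baseline in aorta (adjusted p = 0.145) and of Ctsa for aorta against monocyte (adjusted p = 0.0567), 4 to 3 and 8 to 7 members.

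Counts over all genes moved by more than 1.5 times under some alternatives. They were 37 (28 to 341), 4 (4 to 235) and 58 (50 to 294) for the 3 aortic comparisons in the same order, 1023 (587 to 1424), 194 (91 to 435) and 1798 (1099 to 2180) in monocytes and 171 (43 to 683), 127 (39 to 542) and 86 (14 to 1525) in the peritoneum. For early and advanced responses they were 282 (0 to 1019) and 7 (1 to 113) in aorta against monocyte, 356 (0 to 678) and 25 (12 to 147) in aorta against peritoneum, and 288 (29 to 519) and 129 (25 to 381) in peritoneum against monocyte. Another scaling moved the median of all genes by at most 0.103 on the log2 scale. Group levels of members moved by less than 1 SD in 78 of 90 cases with TMM-scaled CPM and in 57 of 90 without Rn45s in the total. At 0.943 M reads in the shallowest library, Ctsk and Ctse outside their main populations rest on a few counts, so only large differences of these genes could be detected there. The aortic spread of 110% limits what 4 libraries can show for the other members.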
